A study of Mus musculus with 4 samples.

Results

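The mitochondrial respiratory chain and ATP synthase are built from nuclear genes whose symbols follow a small set of patterns, and those genes were read here across 4 expression arrays of mouse melanocytes. A gene was taken when its symbol in the annotation of the mouse genome array began with Ndufa, Ndufb, Ndufc, Ndufs or Ndufv, with Uqcr, with Cox followed by a digit from 4 to 8, or with Atp5, or when it was Sdha, Sdhb, Sdhc, Sdhd or Cycs. This rule, which uses names and no measured value, gave 91 of the 18193 genes with a probe set naming a single symbol. The 91 genes had 183 probe sets, 52 genes had several of them and 39 had 1, and the brightest set on average stood for its gene. They divide into 6 core subunits, 28 supernumerary subunits and 8 assembly factors of complex I, 4 subunits of complex II, 8 of complex III, cytochrome c, 18 genes of complex IV, the supercomplex factor Cox7a2l and 17 genes of complex V.

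The arrays held total RNA of melan-a cells, an immortal line of mouse melanocytes, with 1 array for each of 4 conditions. All 4 cultures were derivatives called Hmhi in the labels, which do not spell the name out, and all were held in medium with dialyzed serum. The first culture was Hmhi cells starved for 14 days, and the second was Hmhi cells given 100 ng/ml of EGF, the epidermal growth factor, for 14 days. The third was labelled Hmhi-Miz1 kd, with pS-Miz1 in its description, and the fourth Hmhi-MYC-TA, a name the labels do not explain; both received the same EGF for 14 days. The series title names Myc, the partner protein Miz-1 and senescence of melanocytes, and the comparisons of each altered line with the Hmhi EGF culture address them. Zbtb17, the gene of Miz-1, has 2 probe sets, of which the dimmer is not given here. The brighter read 8.73 on the starved array, 8.72 with EGF, 9.08 on the array labelled Miz1 kd and 8.71 on the MYC-TA array. By that set the gene was not lower where a knockdown is named. Whether the probes of that set would see the knockdown was not tested, and the culture is called by its label throughout. The labels do not say whether a line is a clone or a pool.

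Complexes I to IV pass electrons from NADH and succinate to oxygen and, except for complex II, pump protons out of the mitochondrial matrix; complex V, the ATP synthase, lets the protons return and makes ATP. Cytochrome c carries electrons from complex III to complex IV. Most subunits are nuclear genes, and transcription factors such as NRF1, the GABP members of the ETS family, YY1 and the ERR receptors, with PGC-1 coactivators, are known to act on many of their promoters. MYC is also known for binding E-boxes in many genes of mitochondrial function.

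Promoter windows from RefSeq on the build GRCm38.p6, each with 250 bases before a start site and 50 after it, were matched to 75 of the 91 genes and gave 80 windows; 16 genes had no window. The 5 short motifs searched on both strands were NRF1 as GCGCNTGCG, ETS as CCGGAAGT, YY1 as AAGATGGCG, the E-box as CACGTG and ERR as AAGGTCA. None of the 80 windows, that is 0, held matches of different motifs that overlapped. The NRF1 letters were in 26 of the 80 windows (32.5%) and in 6.31% of all 32851 windows. Base composition differed as well: the median GC content was 59.0% for these windows and 52.7% for all, and among the 10489 windows at or above 59.0% GC the share with the NRF1 letters was 14.2%. The YY1 letters were in 7 windows (8.75%, against 1.40% of all), the ERR letters in 8 (10.0% against 4.72%), the ETS letters in 5 (6.25% against 3.89%) and the E-box in 7 (8.75% against 7.15%). At least one of NRF1, ETS and YY1 was in 36 windows (45.0%, against 10.7%). A match is only a run of letters, and no binding was measured here.

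The 3 genes that encode the same subunit c of the ATP synthase show how such windows can differ within a set of partners, and the fourth window belongs to Uqcrfs1, the gene with the widest gap between the MYC-TA array and that labelled Miz1 kd. Each line gives the 250 bases before the start site, 5′ to 3′ on the gene's strand, in lower case with any motif match in capitals; all 4 genes lie on the minus strand. The windows are chr11:96075632-96075881 for Atp5g1, chr15:102671048-102671297 for Atp5g2, chr2:73911327-73911576 for Atp5g3 and chr13:30545317-30545566 for Uqcrfs1.
Atp5g1: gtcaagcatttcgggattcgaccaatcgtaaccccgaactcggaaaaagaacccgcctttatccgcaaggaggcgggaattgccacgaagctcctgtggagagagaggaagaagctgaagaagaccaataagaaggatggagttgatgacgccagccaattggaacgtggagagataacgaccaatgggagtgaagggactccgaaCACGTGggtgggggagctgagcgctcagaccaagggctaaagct
Atp5g2: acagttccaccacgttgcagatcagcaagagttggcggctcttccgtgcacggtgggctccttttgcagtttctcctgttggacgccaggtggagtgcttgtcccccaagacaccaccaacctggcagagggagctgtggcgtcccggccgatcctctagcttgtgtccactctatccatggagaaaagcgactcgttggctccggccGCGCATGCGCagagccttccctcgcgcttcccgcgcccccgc
Atp5g3: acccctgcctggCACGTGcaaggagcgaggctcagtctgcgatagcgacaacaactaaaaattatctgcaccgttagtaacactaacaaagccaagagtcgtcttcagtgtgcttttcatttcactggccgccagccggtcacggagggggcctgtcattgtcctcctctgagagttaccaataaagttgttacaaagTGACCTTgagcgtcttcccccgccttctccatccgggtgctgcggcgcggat
Uqcrfs1: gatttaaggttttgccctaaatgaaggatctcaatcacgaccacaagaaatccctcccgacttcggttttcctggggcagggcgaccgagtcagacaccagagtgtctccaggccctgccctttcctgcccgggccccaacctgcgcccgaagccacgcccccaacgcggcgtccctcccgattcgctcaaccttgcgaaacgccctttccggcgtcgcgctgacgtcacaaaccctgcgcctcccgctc
The capitals of Atp5g1 are an E-box that begins at -44 from the start. Those of Atp5g2 are the NRF1 letters, matched on both strands and beginning at -42 and -41. In Atp5g3 they are an E-box at -238 and the ERR letters on the opposite strand at -52; its window also held the NRF1 letters in the bases after the start, which are not printed. The window of Uqcrfs1 held none of the 5 motifs. On the starved, Hmhi EGF, Miz1 kd and MYC-TA arrays in that order, as in every such series of values below, Atp5g1 read 11.40, 11.18, 11.05 and 11.44. Atp5g2 read 12.00, 11.80, 11.80 and 12.09, and Atp5g3 read 13.42, 13.40, 13.37 and 13.51. These are log2 signals, as are all levels given here, and a difference of 1 is 2-fold. All 3 partners were highest on the MYC-TA array and lowest on the array labelled Miz1 kd, with differences between those arrays of 0.39, 0.30 and 0.14. Over the members compared that have a window, the median difference of the MYC-TA array from the array labelled Miz1 kd was 0.21 for the 24 with the NRF1 letters and 0.18 for the 46 without. For the MYC-TA array against Hmhi EGF the same medians were 0.12 and 0.18, for the array labelled Miz1 kd -0.040 and -0.11, and for EGF against starved -0.17 and -0.20. Between MYC-TA and Miz1 kd the E-box gave 0.30 for 6 genes with it and 0.17 for 64 without, the ETS letters 0.11 for 5 and 0.24 for 65, and the YY1 letters 0.16 for 7 and 0.20 for 63. These splits rest on few genes and were not tested.

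A gene was compared between 2 arrays only if it reached the median signal, 6.66, on the array where it was brighter. In each comparison 85 of the 91 genes passed. The 6 that did not were Cox4i2, Cox6b2, Cox7a1, Cox7b2 and Cox8b, which are isoforms of muscle, lung or testis, and Ndufb4, whose only probe set naming it alone read 5.46, 5.47, 5.92 and 6.09. The 5 tissue isoforms read between 4.04 and 6.38 on every array. Signals of the whole set were otherwise high: 67 to 71 of the 91 genes were at or above the 90th percentile of the array they were read on.

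With 1 array a condition no test was possible, so the values compare arrays and not conditions, and the number of arrays limits their precision. The error that could be measured is technical, the SD between probe sets of the same gene. For members with several sets past the level filter it was 0.26 for EGF against starved, 0.19 for Miz1 kd against Hmhi EGF, 0.23 for MYC-TA against Hmhi EGF and 0.38 for MYC-TA against Miz1 kd (n = 49 genes). The sets of a gene past that filter all had the same sign in 33, 34, 35 and 31 of those 49 genes. Dimmer sets were not counted. Many of these genes have processed pseudogene copies, and sets with suffixes that mark shared probes may read them too. The comparisons with the Hmhi EGF array share that array, so an odd value there enters all 3 of them.

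Most respiratory chain genes were less than 1.5-fold apart in each of the 4 comparisons made, and the set was lower with EGF than in starved cells, by a small amount. Of the 85 genes, 24 were higher and 61 lower on the Hmhi EGF array, with a median difference of -0.20 beside 0.006 for all 11461 genes tested; 28.2% of the members were higher, and 50.5% of all genes. The counts at 1.5-fold were 2 higher, against 16.7% of all genes, and 4 lower, against 13.3%. At 2-fold 0 were higher, against 7.98% of all genes, and 1 was lower, against 4.96%. The quartiles of the members were -0.30 and 0.069, where those of all genes were -0.33 and 0.37, so large differences in either direction were rarer among them. In this and the other comparisons all genes were not matched to the members for signal level. The part of level in these shares was not tested.

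On the array labelled Miz1 kd, 33 members were higher and 51 lower than with the Hmhi EGF array, with a median of -0.055 beside 0.018 for all 11394 genes. At 1.5-fold 0 members were higher, where 2.15% of all genes were, and 3 were lower, where 6.99% of all genes were. At 2-fold 0 were higher and 0 lower, with 0.290% and 2.50% of all genes. The share of 3.53% that was 1.5-fold lower was below that of genes at large.

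On the MYC-TA array, 59 members were higher and 25 lower than on the Hmhi EGF array, with a median of 0.16 beside 0.045 for all 11534 genes; 69.4% of members and 55.1% of all genes were higher. At 1.5-fold 5 members were higher, which is 5.88% against 7.30% of all genes, and 0 were lower, against 7.03%. At 2-fold 0 were higher and 0 lower, with 1.30% and 1.65% of all genes. Between the MYC-TA array and the array labelled Miz1 kd, 57 were higher and 28 lower, with a median of 0.16 beside 0.039 for all 11613 genes. There 16 members (18.8%) were at least 1.5-fold higher on the MYC-TA array, near the 17.0% of all genes, and 2 (2.35%) were lower, against 12.4%; with plain probe sets only, 6 of 64 members were lower. At 2-fold 4 (4.71%) were higher, against 6.72%, and 0 were lower, against 4.26%. The upward counts are thus near or below those of genes at large, and the downward counts are below them.

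**Figure D1:**
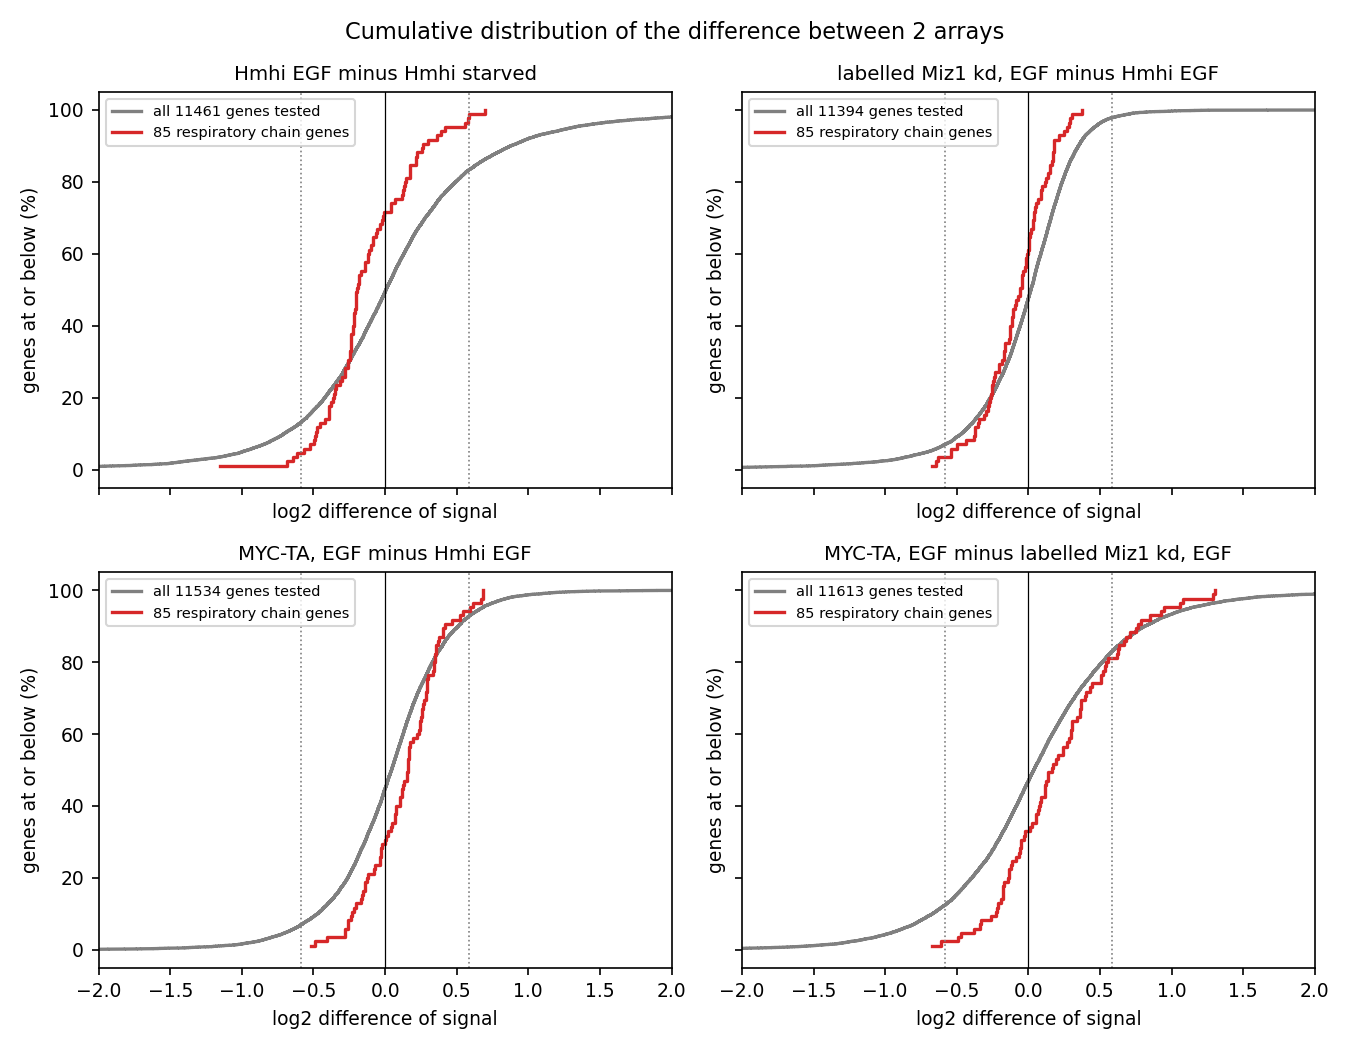
Cumulative share of genes (%, vertical axis) at or below each log2 difference between 2 arrays (horizontal axis), in 1 panel for each of the 4 comparisons; the red line is the 85 respiratory chain genes, the grey line is all genes tested, and dotted lines mark 1.5-fold. The red line is steeper than the grey line, crosses the middle at -0.20 for EGF against starved and at 0.16 in both MYC-TA panels, and has few genes beyond the dotted lines except on the right of the last panel.

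The array with the lowest level was that labelled Miz1 kd for 40 of the 85 genes (47.1%, against 28.0% of all genes tested). The highest was the starved array for 36 (42.4%, against 30.2%), the MYC-TA array for 30 (35.3%, against 28.8%), the array labelled Miz1 kd for 12 (14.1%, against 29.0%) and the Hmhi EGF array for 7 (8.24%, against 12.0%).

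**Figure D2:**
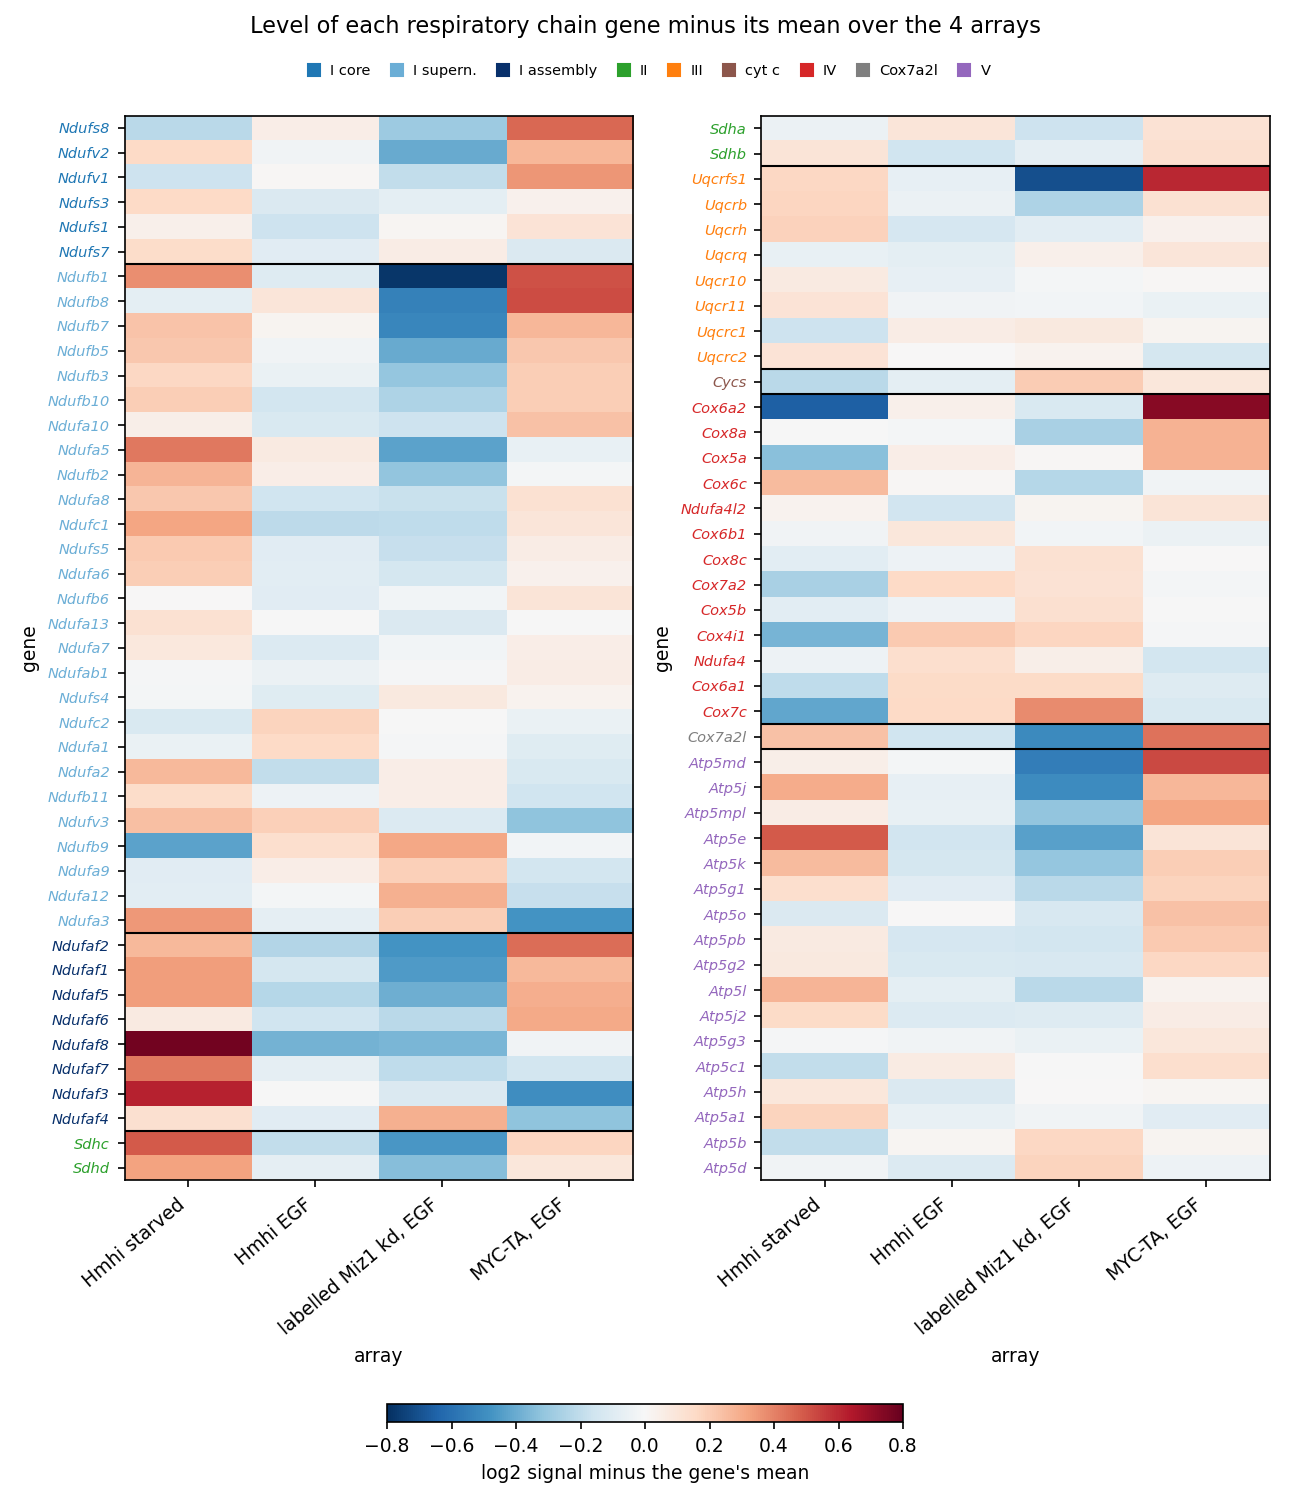
Heat map of the 85 respiratory chain genes (rows, grouped and coloured by complex) over the 4 arrays (columns); colour is the log2 signal minus the gene's mean over the arrays, from -0.8 in blue to 0.8 in red, and genes in a group are sorted by the MYC-TA minus Miz1 kd difference. Ndufb1, Ndufb8, Uqcrfs1, Cox7a2l and Atp5md are blue on the array labelled Miz1 kd and red on the MYC-TA array, while Cox4i1, Cox7c and Ndufb9 are blue on the starved array.

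Complex I takes electrons from NADH. Its core subunits, which carry the flavin and most iron-sulfur clusters, had median differences of -0.20 with EGF, -0.085 on the array labelled Miz1 kd, 0.28 on the MYC-TA array and 0.33 between the last 2; with plain probe sets only, the second was -0.31 and the last 0.65. Ndufs8, an iron-sulfur subunit, read 12.23, 12.50, 12.16 and 12.91. Its MYC-TA signal was 0.75 above that labelled Miz1 kd, and all 6 of its probe sets agreed in sign, with 0.59 to 0.94. Ndufv1, which binds NADH and the flavin, read 12.08, 12.26, 12.05 and 12.60, and its 3 sets gave 0.55 to 0.71 for the same pair of arrays. Ndufv2, the partner of Ndufv1, read 12.71, 12.52, 12.14 and 12.81, a difference of 0.67 there. The core subunits were not uniform: Ndufs7 read 11.93, 11.70, 11.85 and 11.67, which is -0.18 between MYC-TA and Miz1 kd. With EGF the most negative core difference was Ndufs3 at -0.28 and the most positive Ndufs8 at 0.27, near the technical SD.

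The supernumerary subunits surround the core, and 27 of 28 passed the filter on level. Their medians were -0.20, -0.056, 0.12 and 0.13 in the 4 comparisons, with 21 of 27 lower with EGF. The Ndufb genes, most of which encode subunits of the far end of the membrane arm, held the widest gaps. Ndufb1 read 7.91, 7.44, 6.76 and 8.05, lower by 0.68 on the array labelled Miz1 kd and higher by 0.62 on the MYC-TA array than with Hmhi EGF. It has 1 probe set and a level near the array median on the lowest array, so its difference of 1.29 has no check from another set. Ndufb8 read 11.56, 11.73, 11.09 and 12.15, a difference of 1.06 between the last 2 arrays; its dimmer second set gave 0.60. Ndufb7 read 11.87, 11.67, 11.12 and 11.91, and its sets gave 0.79 and 0.81. Ndufb5 read 12.11, 11.87, 11.49 and 12.11, with 0.62 and 0.54 from its sets. These 4 genes were lowest on the array labelled Miz1 kd.

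Other supernumerary subunits ran the opposite way. Ndufa3 read 13.16, 12.73, 13.01 and 12.33, and its 3 sets were all lower on the MYC-TA array than on that labelled Miz1 kd, from -0.68 to -0.74. Ndufb9 read 12.61, 13.17, 13.35 and 13.02, with 0.56 for EGF against starved, the most positive of the subunits of complex I; its 3 sets gave 0.51 to 0.73. Ndufa12 read 12.90, 12.97, 13.27 and 12.81, the most positive on the array labelled Miz1 kd at 0.30. Ndufv3 read 12.61, 12.56, 12.26 and 12.05, and its -0.51 was the most negative between MYC-TA and Hmhi EGF. Ndufc1 read 12.56, 12.03, 12.04 and 12.33, and its -0.52 was the most negative with EGF. Subunits of the same complex therefore differed in direction between the same arrays.

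The 8 Ndufaf genes help to assemble complex I and are not parts of it. All 8 were lower with EGF than in starved cells, with a median of -0.49, beyond the -0.20 of the subunits. Ndufaf8, a partner of Ndufaf5, read 11.13, 9.98, 9.99 and 10.33. It was 2.22-fold lower with EGF, the only member past 2-fold in that comparison, and its second set gave -0.93 beside -1.15. Ndufaf3 read 10.05, 9.43, 9.32 and 8.94, lower by 0.62 on the log2 scale with EGF. On the MYC-TA array 5 of the 8 were higher than with Hmhi EGF, with a median of 0.38, or 0.14 with the filter at the 75th percentile. Ndufaf2, an assembly chaperone, read 9.03, 8.54, 8.29 and 9.22, a MYC-TA difference of 0.68. Ndufaf1, which works on early membrane-arm modules, read 9.80, 9.32, 9.02 and 9.73. Ndufaf5, which modifies Ndufs7, read 8.23, 7.66, 7.50 and 8.19. These 3 were 0.93, 0.71 and 0.68 higher on the MYC-TA array than on that labelled Miz1 kd, each from a single set. Ndufaf4 read 9.99, 9.78, 10.15 and 9.54, a difference of -0.61 there, and its second set gave -0.099. Ndufaf6 read 8.13, 7.89, 7.84 and 8.36, and Ndufaf7 read 9.98, 9.49, 9.36 and 9.41.

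**Figure D3:**
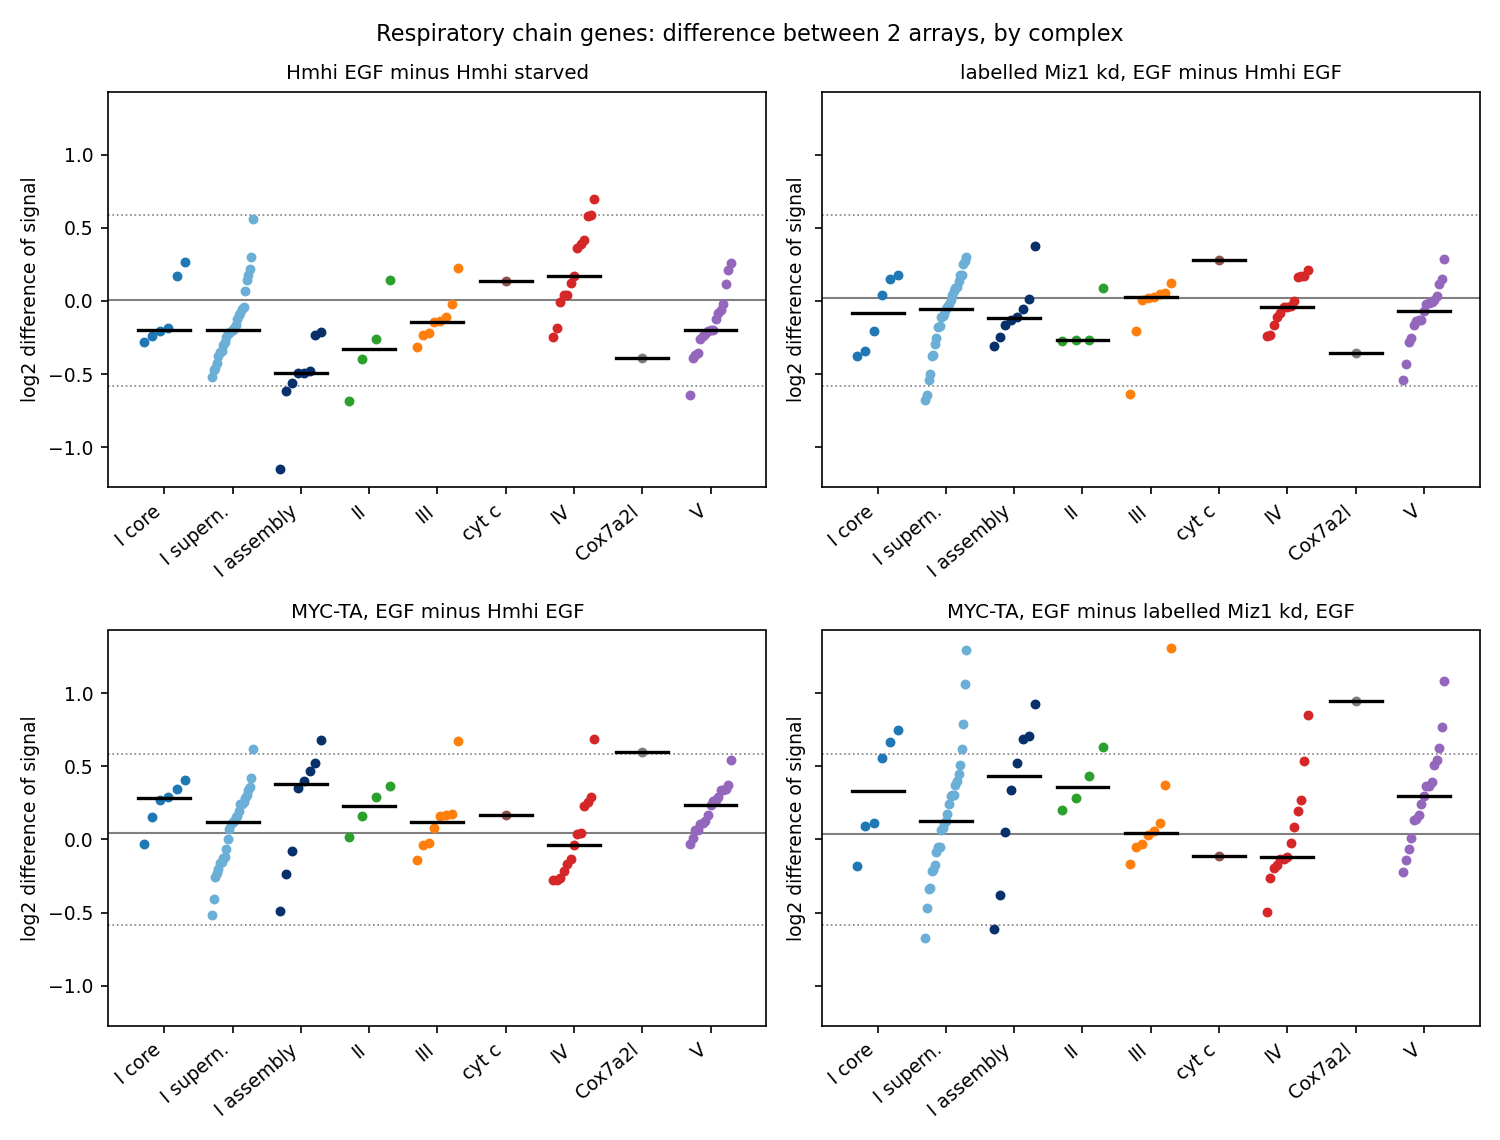
Log2 difference (vertical axis) of each respiratory chain gene past the level filter, by complex or class (horizontal axis), in 1 panel for each of the 4 comparisons; points are genes, black bars class medians, the grey line is the median of all genes tested and dotted lines mark 1.5-fold. In the panel of EGF against starved all 8 assembly factors of complex I lie below 0 with a median of -0.49, while complex IV has a median of 0.17; in the panel of MYC-TA against Hmhi EGF 16 of 17 genes of complex V lie above 0.

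Complex II, the succinate dehydrogenase, is shared with the citric acid cycle. Its medians were -0.33, -0.27, 0.23 and 0.36, and the second was -0.013 with the mean of all sets. Sdhc, a membrane anchor, read 10.12, 9.43, 9.16 and 9.80, and was 1.61-fold lower with EGF. Its second set, of the kind that can share probes with related sequences, read 9.39, 9.25, 9.45 and 9.45, so the 2 sets differed in whether MYC-TA stood above Miz1 kd (0.63 and -0.001). Sdhd, the other anchor, read 11.58, 11.19, 10.91 and 11.35. The flavin subunit Sdha read 11.96, 12.11, 11.84 and 12.13, and the iron-sulfur subunit Sdhb read 12.07, 11.81, 11.90 and 12.10. The 4 genes were higher on the MYC-TA array than on the Hmhi EGF array, by 0.019 for Sdha to 0.37 for Sdhc; the value of Sdha was -0.18 with the mean of all its sets.

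In complex III, which passes electrons to cytochrome c, a single gene stood apart by the sets that stand for the genes. Uqcrfs1, the Rieske iron-sulfur protein, read 10.76, 10.52, 9.88 and 11.19. It was 1.55-fold lower on the array labelled Miz1 kd and 1.59-fold higher on the MYC-TA array than with Hmhi EGF, and the 2.47-fold gap between those arrays was the widest of the 85 genes. It has 1 probe set. By the sets that stand for them, the other 7 genes lay between -0.31 and 0.22 in the comparisons with Hmhi EGF. The medians of complex III were -0.14, 0.024, 0.12 and 0.042, of which the second turned to -0.003 with a loess correction and the last to -0.009 with the mean of all sets. Uqcrb read 13.54, 13.32, 13.12 and 13.49, the next widest gap at 0.37. Its dimmer second set read 10.90, 10.27, 9.72 and 10.68. That set gave -0.62 with EGF and 0.96 between MYC-TA and Miz1 kd, in the same directions as Uqcrfs1. Uqcrh, the hinge protein, read 12.81, 12.50, 12.54 and 12.66, the most negative with EGF at -0.31. The core protein Uqcrc1 read 11.20, 11.42, 11.44 and 11.38, and Uqcrc2 read 12.15, 12.04, 12.07 and 11.90. Cycs, the cytochrome c of somatic cells, read 12.67, 12.81, 13.09 and 12.98. By that set it was highest on the array labelled Miz1 kd, 0.28 above Hmhi EGF. Its next brightest sets were instead highest on the MYC-TA array, 0.14 and 0.28 above that labelled Miz1 kd. Its 4 sets ran from -0.42 to 0.14 with EGF, so that direction depends on the set.

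Complex IV reduces oxygen to water, and its genes ran opposite to the rest in the comparison of EGF with starved cells. Of 13 genes past the filter 10 were higher with EGF, with a median of 0.17, and of the 10 widely expressed ones 8 were higher, with a median of 0.27. The 72 members outside complex IV had a median of -0.21, with 14 higher and 58 lower. Cox4i1, the widely expressed isoform of the largest nuclear subunit, read 13.55, 14.13, 14.09 and 13.92. Its EGF difference of 0.585 lay at the 1.5-fold threshold, and that of Cox7c, with 8.34, 8.92, 9.14 and 8.64, lay just under it at 0.578. Cox6a1 read 14.18, 14.54, 14.54 and 14.28, and its 2 sets gave 0.36 and 0.52. Cox7a2 read 13.11, 13.53, 13.49 and 13.36, with 0.42 and 0.29 from its sets. Cox5a read 12.76, 13.15, 13.11 and 13.38. These 5 genes were lowest on the starved array.

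Cox6c ran with the other complexes and not with its own: it read 13.11, 12.86, 12.63 and 12.82, a difference of -0.24 with EGF. Its second set read 12.44, 11.77, 11.45 and 11.73, which is -0.67 with EGF and past 1.5-fold. The 6 sets of Cox5b ran from -0.11 to 0.75 with EGF, so its direction there depends on the set. Cox5b read 13.86, 13.90, 14.07 and 13.94, Cox6b1 read 13.60, 13.72, 13.61 and 13.59, and Ndufa4, a late-recognized subunit of complex IV, read 13.05, 13.23, 13.14 and 12.95. Cox8a read 12.86, 12.85, 12.61 and 13.15, the widest MYC-TA difference of the widely expressed subunits at 0.29. On the MYC-TA array the widely expressed subunits had a median of -0.15 against Hmhi EGF, with 3 higher and 7 lower, where the members without complex IV had 0.17, with 53 higher and 18 lower. Between the MYC-TA array and that labelled Miz1 kd the median of all 13 was -0.12, or 0.050 with plain probe sets only. Complex IV thus had a median of the opposite sign to the rest both with EGF and on the MYC-TA array against Hmhi EGF; that difference was not tested. Signal level moved with the same comparisons: over the 85 members, which share the 4 arrays, the Spearman correlation of mean level with the difference was 0.46 with EGF and -0.43 on the MYC-TA array, and most widely expressed genes of complex IV read above 12 throughout. Without a correction for level, the median of all 13 genes of complex IV was 0.17 with EGF and -0.037 on the MYC-TA array against Hmhi EGF. After a loess correction for level over all genes, the medians of the same 13 were 0.17 and -0.017. That correction takes out the trend of all genes and not a relation to level within the 85 members. The part of level in the medians of complex IV was therefore not tested.

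Of 8 tissue-restricted genes, 3 passed the filter. Cox6a2, the isoform of heart and skeletal muscle, read 7.10, 7.79, 7.63 and 8.48, so it was 1.62-fold higher with EGF and a further 1.61-fold higher on the MYC-TA array. Its dimmer second set read 5.42, 5.67, 5.59 and 6.43, with 0.25 and 0.76 for the same comparisons. Its widely expressed partner Cox6a1, given above, was -0.26 on the MYC-TA array against Hmhi EGF. Cox8c, known from testis, read 8.38, 8.42, 8.58 and 8.46, and Ndufa4l2, a hypoxia-responsive relative of Ndufa4, read 6.88, 6.70, 6.87 and 6.95. Cox7a2l, a factor linked to supercomplexes of complexes III and IV, carries a Cox symbol but ran unlike complex IV. It read 11.94, 11.54, 11.19 and 12.14, and its 3 sets were higher on the MYC-TA array than with Hmhi EGF by 0.60 to 0.73 and than Miz1 kd by 0.95 to 1.26.

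Complex V makes ATP. Its genes were lower with EGF (3 higher and 14 lower, median -0.20), with a median of -0.069 on the array labelled Miz1 kd, and higher on the MYC-TA array than with Hmhi EGF (16 of 17, median 0.24). Between MYC-TA and Miz1 kd 14 were higher and 3 lower, with a median of 0.30. The widest gaps were in small subunits of the membrane part and the stalk. Atp5md, a small membrane subunit tied to dimers of the enzyme, read 11.49, 11.43, 10.89 and 11.97, a difference of 1.08 between the last 2. Atp5j, coupling factor 6 of the peripheral stalk, read 13.07, 12.71, 12.27 and 13.04, with 0.77. Atp5mpl, another small membrane subunit, read 11.24, 11.12, 10.87 and 11.49, with 0.63. All 3 rest on a single set each and were lowest on the array labelled Miz1 kd.

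Atp5e, the epsilon subunit of the catalytic head, read 11.55, 10.90, 10.62 and 11.16, and was 1.56-fold lower with EGF. The other subunits of the head varied less. The catalytic Atp5b read 13.48, 13.69, 13.85 and 13.70, and the alpha subunit Atp5a1 read 13.37, 13.12, 13.16 and 13.10. The delta subunit Atp5d read 12.86, 12.78, 13.07 and 12.84, the most positive of complex V on the array labelled Miz1 kd at 0.29. The gamma subunit Atp5c1 read 13.13, 13.39, 13.32 and 13.46, the most positive with EGF at 0.26. Its second set read 8.72, 9.51, 9.96 and 8.64, which is -1.31 between MYC-TA and Miz1 kd where the brighter set gave 0.14. Dimmer sets of Sdha (7.39, 7.74, 8.20 and 7.11) and Atp5g2 (6.89, 7.54, 7.95 and 7.07) also ran against the brighter set of their gene. So did a dimmer set of Atp5j2, with -0.84 between MYC-TA and Miz1 kd against 0.16. A dimmer set of Ndufab1 gave -1.96 there, a wider gap than that of Uqcrfs1, where its brighter set gave 0.065. On the MYC-TA array against Hmhi EGF those Ndufab1 sets gave -1.42 and 0.10. These dimmer sets were picked after their values were seen, and what they detect was not tested.

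**Figure D4:**
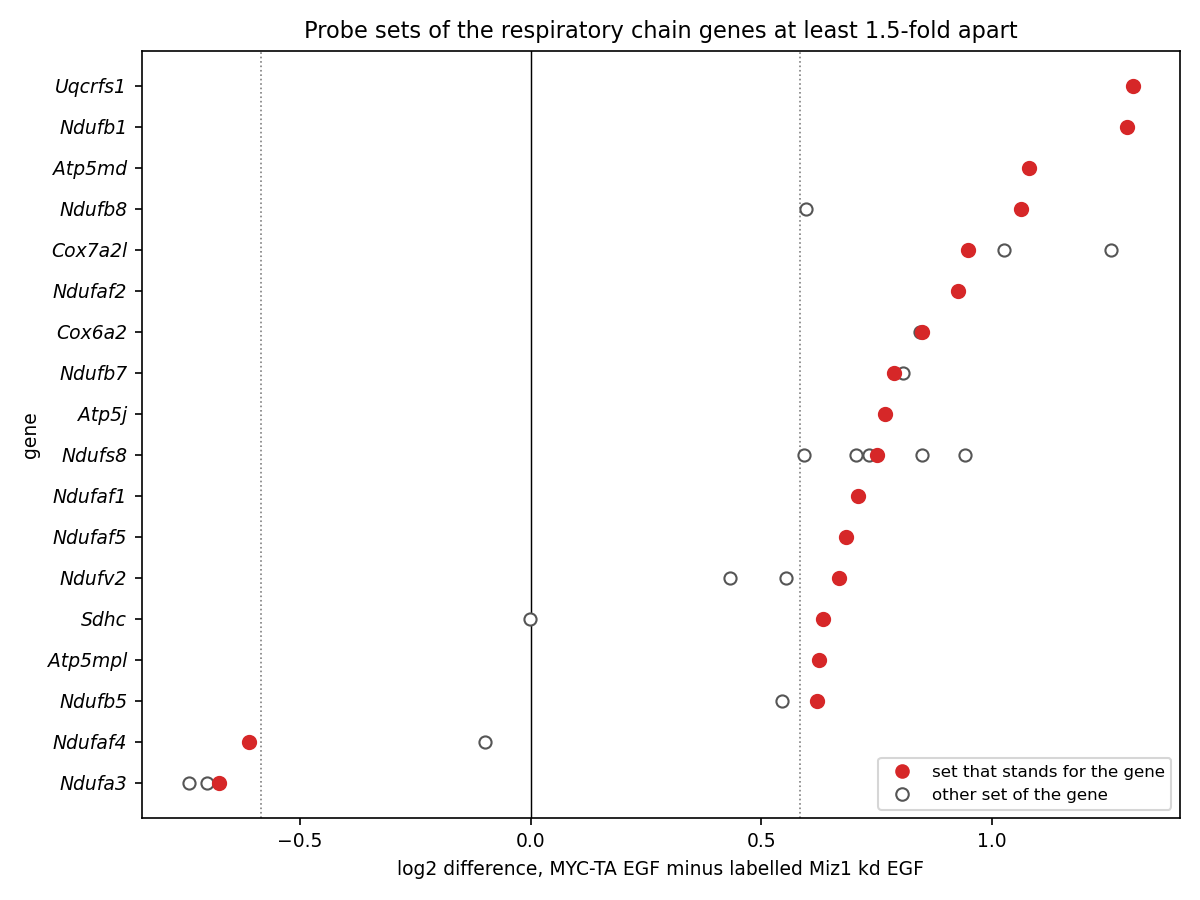
Log2 difference of the MYC-TA array minus the array labelled Miz1 kd (horizontal axis) for the 18 respiratory chain genes at least 1.5-fold apart (vertical axis); filled red points are the probe set that stands for the gene, open points its other sets, and dotted lines mark 1.5-fold. The open points of Ndufs8 and Cox7a2l lie with the filled ones beyond 1.5-fold, that of Sdhc lies at -0.001, and Uqcrfs1, Ndufb1 and Atp5md have no second set.

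Genes that build the chain and its machinery were read from lists of known genes. Of 39 tested assembly factors and subunits outside the naming rule, 8 were at least 1.5-fold lower with EGF, where 13.3% of all genes were, and 1 was higher, where 16.7% were, with a median of -0.24. Nubpl, which delivers iron-sulfur clusters to complex I, read 10.20, 8.62, 8.54 and 9.09, and Coa6 and Cox20, for complex IV assembly, read 10.35, 9.16, 8.80 and 9.64, and 11.26, 10.15, 9.85 and 10.08. The assembly factors of complex IV thus included genes lower with EGF while its subunits were mostly higher. On the array labelled Miz1 kd 3 of these 39 were 1.5-fold lower and 1 higher (median -0.088), beside 6.99% and 2.15% of all genes. On the MYC-TA array 2 were higher and 1 lower than with Hmhi EGF (median 0.16), beside 7.30% and 7.03%. Between the last 2 arrays 10 were higher and 2 lower, beside 17.0% and 12.4%, with a median of 0.33. Cox15, for heme a synthesis, read 8.87, 8.62, 8.13 and 9.48, and Ttc19, for complex III, ran the other way with 8.16, 8.64, 9.37 and 7.78.

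The 76 mitochondrial ribosomal proteins, which translate the subunits encoded in mitochondrial DNA, had medians of -0.34 with EGF (15 higher, 61 lower), -0.076 on the array labelled Miz1 kd, 0.35 on the MYC-TA array (67 higher, 9 lower) and 0.37 between the last 2. At 1.5-fold on the MYC-TA array 11 of the 76 were higher and 0 lower than with Hmhi EGF, beside 7.30% and 7.03% of all genes. Mrpl16 read 9.80, 9.38, 8.90 and 10.28. Mrps12 read 12.19, 11.01, 10.98 and 11.17. The ribosomal medians were further from 0 than those of the respiratory chain genes in each of the 4 comparisons; that difference was not tested.

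The 31 tested import factors and chaperones had medians of -0.24, 0.045, 0.26 and 0.32, and 6 of the 31 were 1.5-fold higher on the MYC-TA array than with Hmhi EGF, beside 7.30% of all genes. Timm8a1, an import chaperone, read 9.85, 9.72, 9.95 and 10.90. The 21 tested genes of the citric acid cycle and its entry had medians of -0.18, -0.010, 0.11 and 0.23. Pcx, pyruvate carboxylase, read highest with EGF, 1.14 above starved. The 14 tested carriers had medians of 0.021, 0.11, 0.070 and -0.11, and Mpc1, a pyruvate carrier, was 0.96 higher on the MYC-TA array than on that labelled Miz1 kd. The 7 antioxidant genes had medians of -0.49, -0.065, 0.36 and 0.42. Prdx3, which removes peroxide in the matrix, read 10.86, 10.36, 9.80 and 11.14. ND5, the one probe set for mitochondrial DNA here, read 14.30, 14.67, 14.84 and 14.16, so it was lowest on the MYC-TA array, opposite to the median of the nuclear members.

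The regulators had medians of 0.077, -0.021, 0.26 and 0.45 (18 or 19 genes tested). Ppargc1a, the PGC-1 alpha coactivator, read 6.96, 9.26, 7.41 and 9.89. All 5 of its probe sets placed it low on the starved array and on the array labelled Miz1 kd, with differences of 1.80 to 2.37 for EGF against starved. On the starved array Ppargc1a was lowest while 36 of the 85 respiratory chain genes were highest (42.4%, against 30.2% of all genes tested). Another 14 of the 85 were lowest there (16.5%, against 35.0%). Ppargc1b, a related coactivator, read 8.85, 9.74, 10.45 and 9.44, and Pprc1, the third of the family, read 8.97, 8.95, 8.91 and 9.84. Polrmt, the mitochondrial RNA polymerase, read 10.08, 11.08, 11.59 and 10.32, and Polg, the mitochondrial DNA polymerase, read 9.67, 11.03, 10.97 and 10.64. Yy1 read 11.17, 10.62, 10.61 and 11.26, and Gabpa, a GABP subunit, read 10.98, 10.63, 10.37 and 11.25. By these sets Yy1 and Gabpa were both highest on the MYC-TA array and lowest on that labelled Miz1 kd, Yy1 by only 0.017 from Hmhi EGF. A dimmer set of Gabpa read 8.36, 7.70, 7.28 and 8.23, highest on the starved array. Of the 85 respiratory chain genes, 30 were highest on the MYC-TA array (35.3%, against 28.8% of all genes tested). On that labelled Miz1 kd 40 were lowest (47.1%, against 28.0%). No relation between the regulators and these genes was tested.

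Facts of the whole arrays bear on these values. Myc read 10.64, 10.60, 10.79 and 9.78. Of 10 melanocyte markers 7 were above the array median on all arrays and Tyr, tyrosinase, was below it on all 4; their mean level ran from 9.18 on the MYC-TA array to 9.97 with Hmhi EGF. Single markers differed more: Oca2 read 8.29, 9.36, 10.09 and 6.21, Slc45a2 read 8.05, 9.67, 9.70 and 6.97, and Dct read 9.79, 11.26, 9.19 and 11.08, while Sox10 ran from 12.96 to 13.37. Of 7 fibroblast markers 2 were above the median on all arrays, and the mean ran from 6.64 on the array labelled Miz1 kd to 7.47 on the MYC-TA array, with Col3a1 at 6.59, 7.21, 6.25 and 9.69 and Dcn at 11.50, 10.35, 9.45 and 11.56, while Pdgfra ran the other way at 7.40, 8.21, 8.24 and 7.93 and Col1a1 was near 6 on each. The 5 keratinocyte and 4 macrophage markers had means of 6.18 to 6.43 on all arrays; Ptprc and Adgre1 of macrophages were below the median on all 4, and Csf1r read 9.41 on the starved array and 6.73 to 6.87 on the others, while Cd68 read 6.55 on the starved array and 8.05 to 8.28 on the others. The 3′ minus 5′ difference of the actin control sets was 0.66, 0.87, 0.74 and 0.72, and that of Gapdh was -0.22, -0.31, -0.40 and -0.24. The mean of the 3 sets for 18S ribosomal RNA was 12.4, 13.2, 12.8 and 12.9, lowest on the starved array. The part of any of these in the differences of the respiratory chain genes was not tested, and in bulk RNA fewer cells of a type and less RNA per cell cannot be told apart.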

How the data were processed

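Total RNA of 4 melan-a cultures was measured on 1 Affymetrix array each, with cRNA made from 100 ng of RNA, per the labels' protocols. The authors' deposited values were read as log2 signals, since they ran from 2.94 to 15.12; the log base, summarization and normalization are not given in the sources used here. The sorted columns lay within 0.004 of each other, so a difference common to all genes is not visible. The platform annotation of 2016 named a single gene for 34945 of 45101 probe sets; 10 sets that name a respiratory chain gene together with another gene were left out of the comparisons. All 91 genes matched RefSeq by gene identifier. A 1.5-fold difference is 0.58 on the log2 scale.

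Genes, lists and comparisons were chosen with earlier results of these data known. Named were the extreme members of each class in each comparison, members at least 1.5-fold apart, tissue isoforms with their partners, the subunit c genes, and up to 3 genes of each other list and comparison at least 1.5-fold apart; any other gene is given for its role. No statistical test was run; the calculations were tested on simulated data. Alternatives were another centring, quantile normalization, a loess correction with span 0.4, other filters on level (none, or the 75th percentile), each gene's sets averaged, and plain sets only. The tools were matplotlib 3.10.9, statsmodels 0.14.6 and scipy 1.17.1 with numpy 2.4.6 and pandas 2.3.3, under Python 3.11.15.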

Additional observations from a re-analysis of the deposited data

Results flagged for a closer look

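These 3 signals came from probe sets that name several genes and that the comparisons did not use. The set shared by Ndufs6, a supernumerary subunit of complex I, and its copy Ndufs6b read 10.70, 10.50, 10.03 and 11.17 on the starved, Hmhi EGF, Miz1 kd and MYC-TA arrays. Its MYC-TA signal was 0.67 above Hmhi EGF and 1.14 above the array labelled Miz1 kd, past 1.5-fold in both. The brighter of the sets shared by Ndufb4 and its copies Ndufb4b and Ndufb4c read 12.50, 12.13, 11.80 and 12.39, which is 0.60 between MYC-TA and Miz1 kd. Another set of the same genes read 12.30, 12.08, 11.86 and 12.41. Which copy these sets detect was not tested.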

How the results depend on the processing

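The median over all members stayed on the same side of 0 and within 0.1 of its value in 24 cases (6 alternatives in 4 comparisons); quantile normalization, the other alternative, left these already matched columns as they were and says nothing about stability. The count 1.5-fold higher with EGF, 2 as reported, was 1 with a common median, 1 with a filter at the 75th percentile and 5 with plain probe sets only. The count 1.5-fold higher on the MYC-TA array against Hmhi EGF, 5 as reported, was 3 with the filter at the 75th percentile, and the count lower, 0 as reported, was 2 with plain sets. The count lower on MYC-TA against Miz1 kd, 2 as reported, was 6 with plain sets, which leave 64 of the members. Complex III reversed to -0.003 on the array labelled Miz1 kd with the loess correction and to -0.009 between MYC-TA and Miz1 kd with the mean of all sets. Complex IV reversed to 0.050 there with plain sets. Other medians moved by over 0.1 without changing sign in 9 cases, among them complex II on the array labelled Miz1 kd, from -0.27 to -0.013 with the mean of all sets, and the complex I core there, from -0.085 to -0.31 with plain sets. The cause was not tested. There were 971 values of named genes under those alternatives. The 172 with no filter on level and the 159 with the filter at the 75th percentile could not change. A filter only decides which genes enter. The common median could move values only slightly, since the array medians ran from 6.659 to 6.661. Of the 971 values, 31 changed sign, nearly all with the mean of all sets or plain sets. In 7 of those sign changes, from 4 genes, both values were at least 0.1 from 0. These were Atp5c1 (0.14 to -1.31 between MYC-TA and Miz1 kd with plain sets), Ndufb8 (0.18 to -0.25 with EGF, plain sets), Cycs (0.14 to -0.23 with EGF, plain sets) and Sdha (0.28 to -0.19 between MYC-TA and Miz1 kd, mean of all sets). Cycs also went from -0.11 to 0.28 between MYC-TA and Miz1 kd with plain sets. No member changed sign in a comparison where it was at least 1.5-fold apart. That says little for members with 1 probe set, such as Uqcrfs1, Ndufb1 and Atp5md, which averaging or plain sets could not change. Atp5e, Cox4i1 and Sdhc have no plain set, so that alternative did not cover them. No paired analysis was possible because a single array stood for each condition, and no array could be left out. A pseudocount was not tried, since the values are already logs. The 6 members below the array median could not be compared.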
